A study of Mus musculus with 2 samples.

Results

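The genes described are 49 mouse genes of DNA replication and mitosis, 24 that peak in S phase and 25 that peak in G2 and mitosis (G2/M), among 32285 mouse genes counted. They were taken by symbol from a list, and all 49 were found in the feature tables. GL261, a mouse glioma cell line, had been implanted in the brain of mice, and tissue was harvested on day 24 as a mixture of tumour and its surroundings for droplet single-cell RNA sequencing. One library carries the host label C57BlL6 WT, and the other the host label Cacna1H-/-, a deletion of the gene of the T-type calcium channel Cav3.2. By their labels the hosts differ by that deletion, the implanted cells are the same line in both, and the age, sex and number of mice behind each library are not given in the sources used here. With 1 library per group there is no replicate, so no p-value is given, and every interval is a 95% interval for counting error only.

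Dividing cells license and copy their DNA in S phase and then condense and separate it in mitosis. The S members include the helicase subunits Mcm2 to Mcm7 that unwind DNA, the sliding clamp Pcna that holds polymerase on it, the nucleotide enzymes Rrm1, Rrm2 and Tyms, and the licensing factors Cdc6 and Cdt1. The G2/M members include the cyclins Ccna2, Ccnb1 and Ccnb2 with their kinase Cdk1, the mitotic kinases Aurka, Aurkb, Plk1 and Bub1, the kinetochore proteins Cenpa, Cenpe, Cenpf and Nuf2, the motor Kif11, and the ubiquitin ligase factors Ube2c and Cdc20 that end mitosis. E2F factors are known to switch on many S genes, and the DREAM and B-MYB complexes are known to time many G2/M genes through the CHR element and CCAAT boxes.

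Cells were barcodes with at least 500 mouse genes and at most 10% mitochondrial UMIs (unique molecular identifiers, each a counted RNA molecule). The WT-labelled library held 3110 such cells with a median of 12522.5 UMIs, and the KO-labelled library held 6575 with a median of 11071, and 7 kept barcodes occur in both. Cacna1h itself did not follow the labels. The WT-labelled library had 13 Cacna1h UMIs (0.250 CPM, UMIs scaled to a total of 1000000 mouse UMIs) and the KO-labelled library 168 (1.67 CPM). Which part of the gene is deleted is not stated, and a 3' count outside that part checks nothing. Y-linked genes stood at 254 CPM in the host cells of the WT-labelled library and 53.2 CPM in the other, and Xist, which is expressed from the inactive X, at 0.719 and 579 CPM, so the KO-labelled library holds cells with Xist and cells with Y-linked transcripts. Each direction given is therefore one between libraries by their labels, written WT-labelled and KO-labelled. Cells were put in classes by marker genes that hold no member, a class name stands for cells with those markers, and 3.12% and 2.66% of cells carried markers of more than 1 lineage and were set apart, while 6.72% and 5.31% took no class. Of the tumour cells 28 and 43 lay near the cutoff of that score.

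Most G2/M promoters held CHR letters, and S promoters held E2F letters at a higher share than all promoters. RefSeq promoter windows (GRCm38.p6, 250 bases before to 50 after the start) were found for 44 of the 49 members, in 47 windows. No entry was found for Aurkb, Ccna2, Gins2, Mcm4 and Tpx2. An E2F element, searched on both strands as TTTCGCGC, TTTGGCGC, TTTCCCGC or TTTGGGCG, was present in 9 of 25 S windows (36.0%), 2 of 22 G2/M windows (9.09%) and 2.34% of all 32851 windows. The CHR element, searched as TTTGAA or TTCGAA, was present in 17 of 22 G2/M windows (77.3%), 5 of 25 S windows and 19.2% of all windows. A CCAAT box, searched as ATTGG and its reverse, was present in 68.0% of S windows, 81.8% of G2/M windows and 37.4% of all, and 72.7% of the G2/M windows held both CHR and CCAAT letters against 7.52% of all. The 110 bases before the start are printed for the S and G2/M members with the most UMIs in tumour cells that hold a searched element (Slbp, Pcna, Mcm6, Top2a, Ube2c and Cenpf). Dtl, Hells, Cdc20 and Cdk1 were added after the search because they show an E2F or a CHR element in that stretch. Capitals mark the letters of a searched element on either strand. In Mcm6 the first 2 E2F matches overlap on opposite strands.
Slbp (chr5:33652575-33652684, minus strand): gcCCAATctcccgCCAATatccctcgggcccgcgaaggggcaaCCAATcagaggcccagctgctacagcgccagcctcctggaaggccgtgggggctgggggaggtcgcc
Pcna (chr2:132253181-132253290, minus strand): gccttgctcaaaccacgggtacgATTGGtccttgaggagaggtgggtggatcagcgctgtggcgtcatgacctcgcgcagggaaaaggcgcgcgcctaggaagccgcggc
Mcm6 (chr1:128359706-128359815, minus strand): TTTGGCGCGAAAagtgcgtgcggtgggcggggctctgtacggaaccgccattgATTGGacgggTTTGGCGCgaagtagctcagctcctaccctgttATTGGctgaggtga
Dtl (chr1:191575545-191575654, minus strand): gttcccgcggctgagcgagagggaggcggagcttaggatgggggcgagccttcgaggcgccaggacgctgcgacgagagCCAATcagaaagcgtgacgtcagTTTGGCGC
Hells (chr19:38930880-38930989, plus strand): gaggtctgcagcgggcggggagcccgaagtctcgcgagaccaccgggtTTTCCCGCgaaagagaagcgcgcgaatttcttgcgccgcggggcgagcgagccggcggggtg
Top2a (chr11:99024190-99024299, minus strand): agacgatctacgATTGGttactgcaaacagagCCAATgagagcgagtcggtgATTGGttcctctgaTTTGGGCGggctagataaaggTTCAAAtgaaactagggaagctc
Ube2c (chr2:164769819-164769928, plus strand): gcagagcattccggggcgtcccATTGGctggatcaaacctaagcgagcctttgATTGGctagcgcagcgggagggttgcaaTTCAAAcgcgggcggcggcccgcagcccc
Cenpf (chr1:189688087-189688196, minus strand): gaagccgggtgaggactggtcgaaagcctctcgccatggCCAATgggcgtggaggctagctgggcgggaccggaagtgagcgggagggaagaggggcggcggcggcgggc
Cdc20 (chr4:118437344-118437453, minus strand): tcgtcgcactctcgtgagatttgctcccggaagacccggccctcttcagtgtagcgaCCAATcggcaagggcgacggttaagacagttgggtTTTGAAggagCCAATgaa
Cdk1 (chr10:69352913-69353022, minus strand): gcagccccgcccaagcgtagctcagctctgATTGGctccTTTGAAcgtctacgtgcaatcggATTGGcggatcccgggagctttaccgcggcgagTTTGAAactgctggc
These stretches lie just upstream of the annotated starts. E2F letters stand in the upstream stretches shown for Mcm6, Dtl and Hells and in that of Top2a, and CHR letters in those of Top2a, Ube2c, Cdc20 and Cdk1. In Cenpf the CHR letters lie in the window but outside the printed stretch. A match is a description of letters and was not tested as a site.

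Of the 11 classes plotted, member levels were highest in tumour cells, neuroblasts and T cells. The G2/M members summed to 2704 CPM in the 1572 tumour cells of both libraries, 3003 CPM in 122 neuroblasts, 1921 CPM in 2049 T cells, 1177 CPM in 316 type 1 dendritic cells, 721 CPM in 442 microglia, 629 CPM in 937 NK cells and 404 CPM in 1903 monocytes and macrophages. These sums pool libraries that differed, most of all in NK cells, at 1370 CPM in the WT-labelled and 295 CPM in the KO-labelled library. A class of 20 neutrophils, with 4461 CPM, was too small to plot. It stood at 6813 CPM in 9 cells of the WT-labelled library and 98.7 CPM in 11 cells of the KO-labelled library. Among the plotted classes neuroblasts held the highest level of 15 of the 25 G2/M members and tumour cells that of 9, while Mki67, the proliferation antigen, was highest in T cells at 238 CPM. The S members were spread more widely. Tumour cells and T cells each held the highest level of 7 of the 24 S members and neuroblasts that of 6. Plasmacytoid dendritic cells held the lowest level of 17 G2/M members and mature dendritic cells that of 12 S members. Slbp, which binds histone mRNA stem-loops, was highest in NK cells. It stood at 139 CPM in NK cells, 82.0 CPM in mature dendritic cells and 78.7 CPM in plasmacytoid dendritic cells, against 101 CPM in tumour cells and 22.1 CPM in oligodendrocytes. Over the same classes Ccnb1 ran from 2.21 CPM in mature dendritic cells to 47.2 CPM in tumour cells and 72.7 CPM in neuroblasts. Cdt1, which loads the helicase, was highest in B cells at 48.8 CPM.

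**Figure D1:**
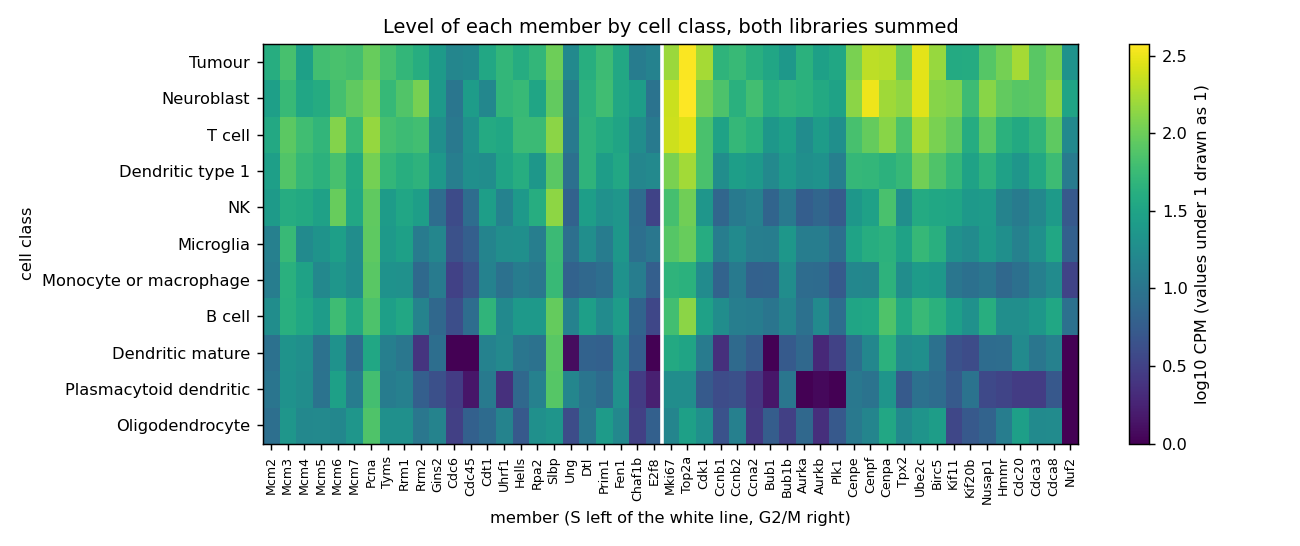
Level of each member (columns, S left and G2/M right of the white line) in 11 cell classes (rows), with both libraries summed, as log10 CPM in colour. The G2/M columns are bright in tumour cells, neuroblasts and T cells and dark in plasmacytoid and mature dendritic cells, while Pcna and Slbp stay bright in most rows.

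To count dividing cells at equal depth, each cell was thinned to 3000 UMIs and called G2/M with at least 3 different G2/M members, or otherwise S with at least 3 different S members. Both together are called cycling. Among tumour cells of the WT-labelled library 304 of 576 (52.8%, 48.6 to 56.9) were cycling, against 310 of 947 (32.7%, 29.8 to 35.8) in the KO-labelled library. By this call, which takes a cell with 3 members of both lists as G2/M, the gap lay in G2/M cells, at 42.4% against 20.2%. Tumour cells called G2/M also held S members, which summed to 1970 and 1783 CPM against 1689 and 1456 CPM in those called S. The S share thus leaves out many cells with S members. The S share was 10.4% against 12.6%, with overlapping intervals. The ratio of cycling shares, KO-labelled over WT-labelled, was 0.620 (0.550 to 0.699), that of G2/M shares 0.476 (0.406 to 0.558) and that of S shares 1.21 (0.900 to 1.62). Without thinning, when most tumour cells reach 3 members, the cycling shares were 90.7% and 86.6%.

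Immune cells divided too. Cycling T cells were 43.5% (39.3 to 47.8) and 32.8% (30.3 to 35.2), with G2/M shares of 21.8% and 14.3%. Cycling NK cells were 28.4% (23.0 to 34.3) and 16.6% (13.8 to 19.8), mostly in S: their G2/M shares were 9.34% (24 of 257 cells) and 2.35% (15 of 637). Type 1 dendritic cells, which cross-present antigen, were cycling at 39.4% (31.9 to 47.3) and 22.8% (16.2 to 30.5), and here the S share had the lower ratio, 0.427 (0.228 to 0.797). Monocytes and macrophages were at 19.2% (16.4 to 22.3) and 8.51% (6.96 to 10.3). Microglia were level at 15.8% (8.43 to 26.0) and 15.8% (56 of 354 cells), and so were B cells at 14.9% (6.20 to 28.3) and 15.6% (11.7 to 20.3), but the intervals of their ratios are wide, 0.565 to 1.78 and 0.505 to 2.19. Without thinning, the cycling shares were 67.3% and 67.8% in T cells and 53.7% and 54.4% in NK cells, and neither was lower in the KO-labelled library. Neuroblasts, few in number, were at 48.0% of 25 cells and 28.4% of 95. The lowest shares were those of oligodendrocytes, which have left the cell cycle, with 3 of 43 and 2 of 107 cells (6.98% and 1.87%), plasmacytoid dendritic cells 7.46% and 6.09%, and mature dendritic cells 6.12% and 8.78%. Some of these cells held many members: the 8 mature dendritic cells called G2/M in the KO-labelled library had a median of 13.5 G2/M members each. The share of false calls was not tested. Median depths were 10596 and 11942 UMIs in oligodendrocytes against 30851.5 and 26422.5 in tumour cells before thinning. A difference between these 2 libraries and one between the host genotypes cannot be told apart.

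**Figure D2:**
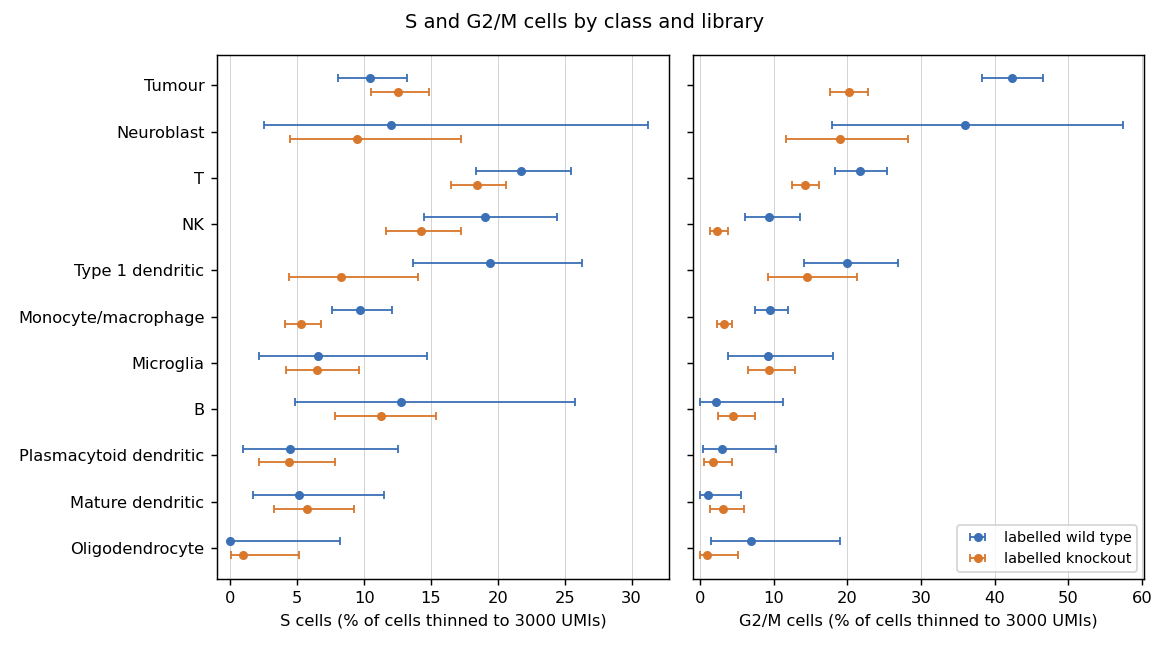
Share of S cells (left) and G2/M cells (right) in 11 classes, in percent of cells thinned to 3000 UMIs, for the WT-labelled library (blue) and the KO-labelled library (orange), with exact binomial 95% intervals. The G2/M intervals of tumour, T, NK and monocyte or macrophage cells do not overlap between libraries, and those of microglia do.

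Tumour states had different cycling shares, and the libraries held different mixtures of them. Cells scoring for Col2a1, Enpp2 and related markers were 37 of 582 tumour cells in the WT-labelled library (6.36%) and 321 of 990 in the KO-labelled library (32.4%), and only 16.2% and 12.6% of them were cycling. Cells scoring for Sncaip, Cntn1 and Nts were 36.9% and 8.99% of tumour cells, and 60.1% (53.2 to 66.7) and 47.1% (36.1 to 58.2) were cycling. Cells scoring for Tcim, Dll3 and Reln were 29.2% and 26.5% of tumour cells and were cycling at 47.1% (39.4 to 54.9) and 43.1% (37.0 to 49.5). Those with no state were cycling at 57.7% (49.5 to 65.6) and 41.5% (35.8 to 47.4). The cycling share of every state was thus lower in the KO-labelled library, but the 95% interval of its ratio lay below 1 only in cells with no state (0.720, 0.594 to 0.872). For G2/M shares the interval lay below 1 in these cells (0.566, 0.448 to 0.716) and in the Sncaip state (0.703, 0.512 to 0.965). The ratio of S shares was 2.10 (1.04 to 4.25) in cells with no state, and its interval spanned 1 in the other states. With the states weighted alike in both libraries the cycling shares of tumour cells were 45.5% and 36.3%, a log2 ratio of -0.33 in place of -0.69. In G2/M members the Sncaip state summed to 4289 and 3251 CPM, the Tcim state to 2376 and 1781 CPM and the Col2a1 state to 1009 and 538 CPM.

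**Figure D3:**
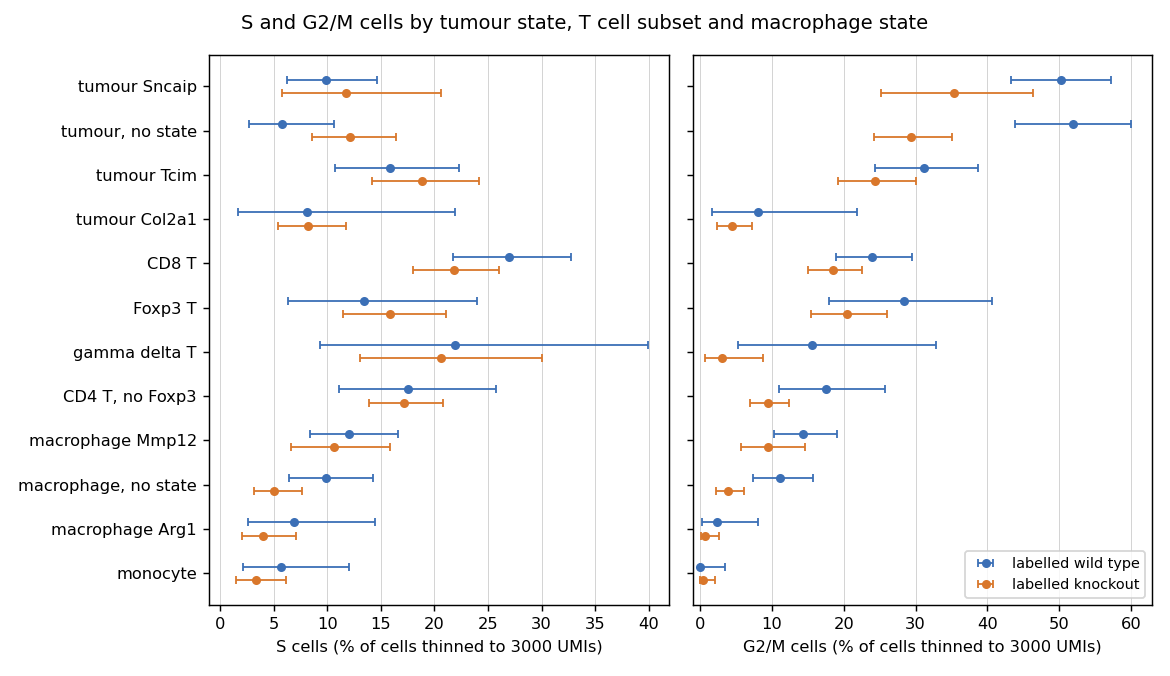
Share of S cells (left) and G2/M cells (right), in percent of cells thinned to 3000 UMIs, in 4 tumour groups, 4 T cell groups and 4 monocyte or macrophage groups, for the WT-labelled library (blue) and the KO-labelled library (orange), with exact binomial 95% intervals. The monocytes and the Arg1 group sit lowest in G2/M cells in both libraries, and the Sncaip state and the tumour cells with no state highest.

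In tumour cells all 49 members were lower in the KO-labelled library, with intervals that exclude 0 for each. A member was measured with at least 100 UMIs in a class over both libraries and called at 1.5-fold. Of the 24 S members 14 were called lower and none higher, with a median log2 ratio of -0.64, and of the 25 G2/M members 21 were called lower and none higher, with a median of -0.80. Of all 12399 measured genes 7.01% were called lower and 10.7% higher, with a median of 0.003. With tumour states weighted alike the medians were -0.37 and -0.49, and 1 S and 8 G2/M members were called. With a call at 2-fold 1 S and 4 G2/M members were lower. The cyclins had the lowest ratios of the G2/M list. Ccnb1, the cyclin that drives entry into mitosis, stood at 72.0 CPM (68.3 to 75.9) in the WT-labelled library and 31.2 CPM (29.2 to 33.3) in the KO-labelled library, a log2 ratio of -1.21 (-1.33 to -1.09). Ccna2 stood at 61.8 and 29.0 CPM (-1.09) and Ccnb2 at 79.6 and 38.0 CPM (-1.07). Rrm2, the regulated subunit of ribonucleotide reductase, had the lowest ratio of the S members at 58.9 and 27.6 CPM (-1.09, -1.23 to -0.96), followed by Cdc45, a part of the active helicase, at 23.0 and 12.8 CPM (-0.84) and Cdc6 (-0.77, from 393 and 356 UMIs).

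The G2/M members with the most UMIs had a wide range of ratios. Top2a, which untangles DNA, was at 450 and 305 CPM (-0.56, -0.61 to -0.52), Ube2c at 405 and 226 CPM (-0.84), Cenpf at 268 and 171 CPM (-0.64), Cenpa, the centromeric histone, at 286 and 143 CPM (-1.06 to -0.94), Cdc20 at 237 and 125 CPM (-0.93) and Cdk1 at 211 and 141 CPM (-0.59). Mki67 was at 222 and 112 CPM (-0.99). Nuf2 and Nusap1 were the other G2/M members with small ratios, at -0.52 and -0.57. Among S members Pcna was at 123 and 76.9 CPM (-0.68), Tyms at 87.0 and 54.9 CPM (-0.66), Mcm3 at 86.5 and 55.6 CPM (-0.64), Mcm6 at 79.9 and 60.7 CPM (-0.39) and Mcm7 at 76.8 and 55.4 CPM (-0.47). Slbp at 112 and 93.9 CPM (-0.26, -0.34 to -0.18), the flap nuclease Fen1 at 39.5 and 32.1 CPM (-0.30) and Hells at 45.4 and 35.6 CPM (-0.35) had the smallest differences of the S list.

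**Figure D4:**
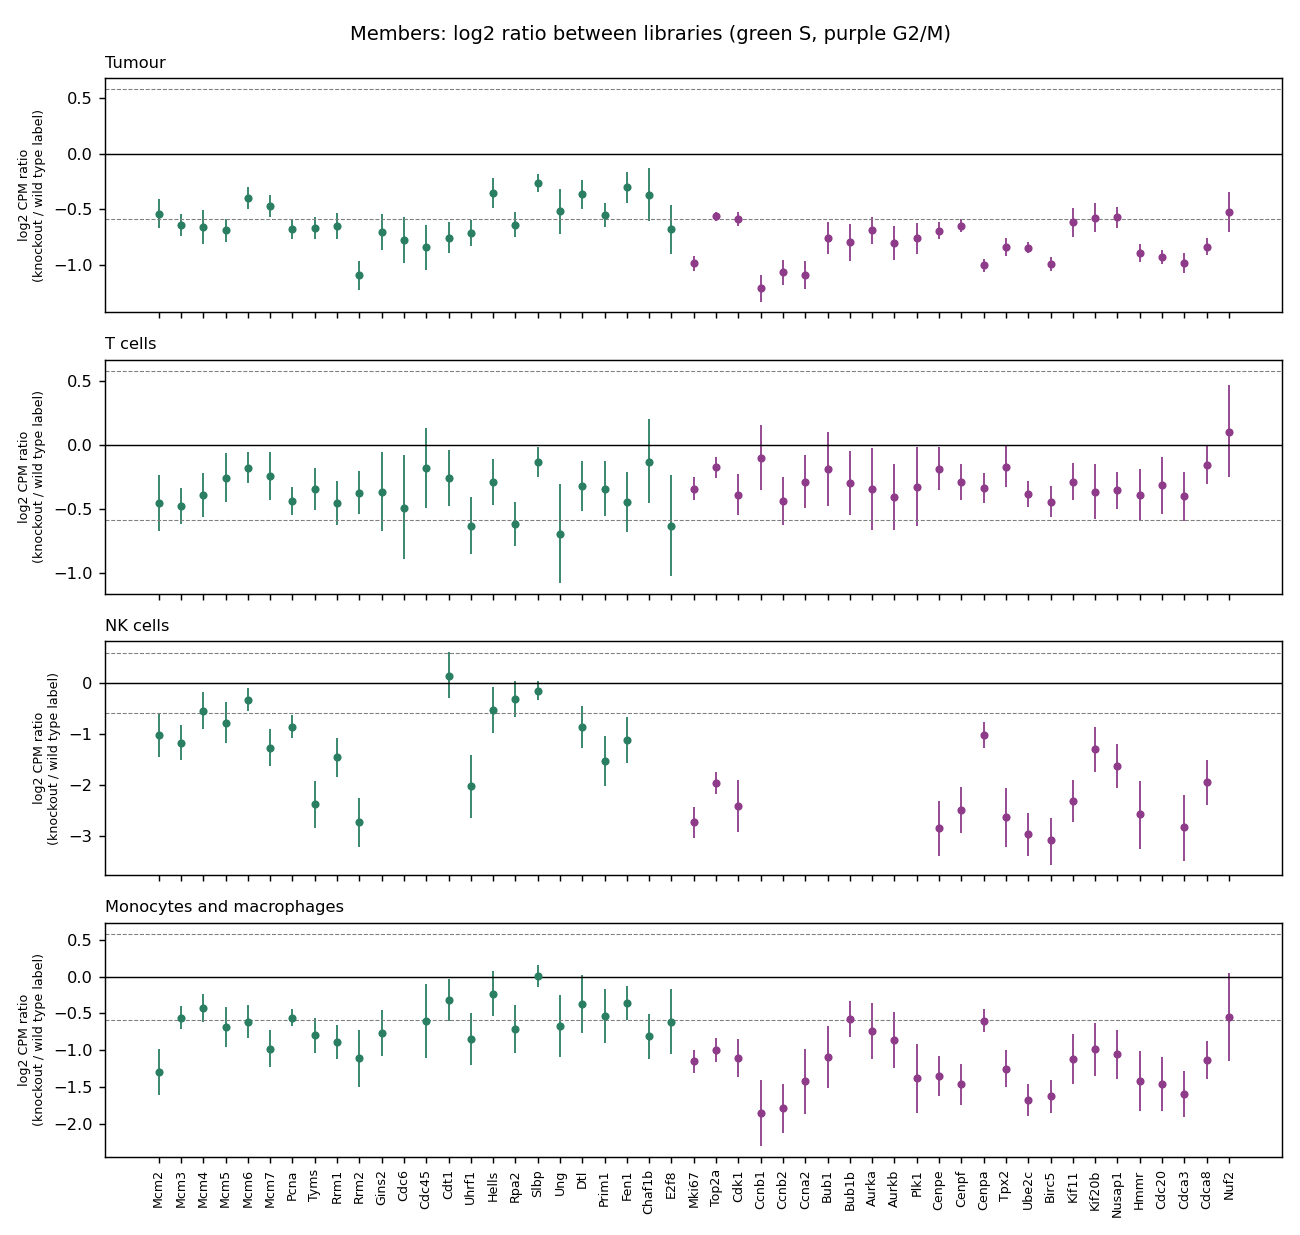
Log2 ratio of CPM, KO-labelled over WT-labelled, of each measured member in tumour, T, NK and monocyte or macrophage cells (S green, G2/M purple), with exact conditional 95% intervals and dashed lines at 1.5-fold. All 49 members lie below 0 in tumour cells, G2/M members lie lowest in NK cells, and Slbp lies close to 0 in NK cells, monocytes and macrophages.

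Within tumour cells called G2/M the G2/M sums were close, and within those called S they were not. These cells were chosen by the same members, so this is a description of their level. The G2/M members summed to 6397 CPM (6349 to 6446) in 244 G2/M tumour cells of the WT-labelled library and 6564 CPM (6511 to 6618) in 191 of the KO-labelled library, and the median log2 ratio of the 25 members was 0.05 with none past 1.5-fold. The S members had a median of -0.16 in the same cells. Ccnb1 remained lower at 130 and 102 CPM (-0.34, -0.47 to -0.22), Mki67 was at 396 and 366 CPM (-0.11), and Top2a and Nuf2 were higher, at 773 and 876 CPM (0.18) and at 43.1 and 55.7 CPM (0.37, 0.18 to 0.56). In tumour cells called S the G2/M sum was 595 and 459 CPM, the S sum 1689 and 1456 CPM, and 4 of 23 measured S members and 2 of 8 G2/M members were past 1.5-fold lower. Rrm2 was at 48.6 and 15.3 CPM there (-1.67, -2.15 to -1.19). In tumour cells not called cycling the G2/M sum was 191 and 149 CPM. G2/M tumour cells were also deeper, with medians of 41170 and 42981 UMIs against 21860.5 and 24279 in cells not cycling. After thinning, 15.1% and 21.6% of tumour cells held no UMI of any member.

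**Figure D5:**
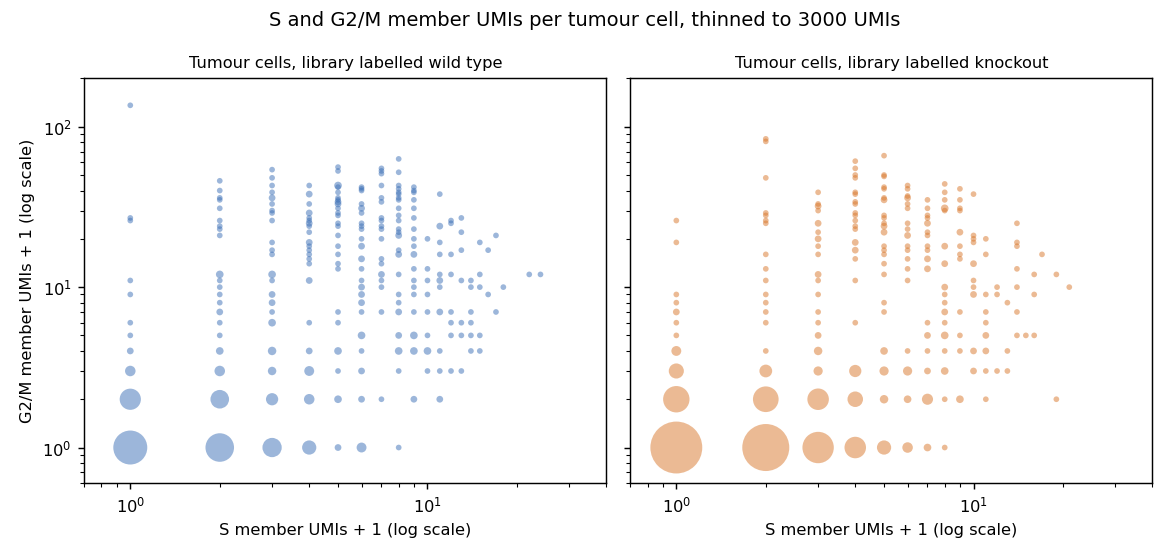
UMIs of S members (horizontal, plus 1, log scale) and of G2/M members (vertical, plus 1, log scale) in each tumour cell thinned to 3000 UMIs, in the WT-labelled library (left) and the KO-labelled library (right), with larger circles where more cells share a value. The largest circles lie at the lower left, and in both libraries cells with many G2/M UMIs spread upward over a wide range of S UMIs.

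T cells showed a smaller shift. All 24 S members had ratios below 0, with a median of -0.37 and 4 called lower, and 24 of 25 G2/M members did, with a median of -0.33 and none called, where 2.38% of 9870 measured genes were called lower and 4.86% higher. The largest S differences were those of Ung, which removes uracil from DNA, at 15.9 and 9.82 CPM (-0.70, from 87 and 158 UMIs), E2f8 at 15.2 and 9.76 CPM (-0.64), Uhrf1, which guides maintenance of DNA methylation, at 46.3 and 29.8 CPM (-0.63) and Rpa2 at 76.5 and 49.7 CPM (-0.62). Among the most counted members Top2a was at 309 and 274 CPM (-0.17), Mki67 at 282 and 223 CPM (-0.34), Ube2c at 208 and 159 CPM (-0.38), Pcna at 182 and 135 CPM (-0.44) and Slbp at 143 and 130 CPM (-0.13). Nuf2 was at 15.9 and 17.1 CPM (0.10, with an interval that spans 0). CD8 T cells had the highest share of S and G2/M cells together, at 50.9% (44.8 to 57.1) and 40.4% (35.7 to 45.2) cycling, Foxp3 T cells, the regulatory subset, at 41.8% and 36.3%, gamma delta T cells at 37.5% and 23.7%, and CD4 T cells without Foxp3 at 35.1% and 26.6%. The G2/M share alone was 28.4% and 20.4% in Foxp3 T cells and 24.0% and 18.5% in CD8 T cells, with overlapping intervals and ratio intervals that span 1. It was 17.5% and 9.41% in CD4 T cells without Foxp3 (ratio 0.537, 0.330 to 0.872). In gamma delta T cells it was 5 of 32 cells and 3 of 97 (ratio 0.198, 0.0501 to 0.782). The mixture of subsets differed too, with 270 CD8 T cells among 575 T cells in the WT-labelled library and 432 among 1474 in the KO-labelled library. With T cell subsets weighted alike the cycling shares were 41.5% and 33.4%, a log2 ratio of -0.32 in place of -0.41. This alternative was chosen after seeing the data. In G2/M cells of the T class the G2/M sum was 5817 and 6310 CPM and the median log2 ratio of its members 0.09.

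NK cells had the lowest G2/M median of the classes compared. All 15 measured G2/M members were called lower, with a median log2 ratio of -2.48, and 12 of 18 measured S members, with a median of -0.94, where 6.98% of 7253 genes were called lower and 7% higher. Another 10 G2/M and 6 S members had under 100 UMIs, so these counts cover measured members alone. Birc5, the survivin of the chromosomal passenger complex, stood at 86.5 CPM (74.8 to 99.5) and 10.2 CPM (7.57 to 13.4), a log2 ratio of -3.09 (-3.56 to -2.64). Ube2c was at 94.5 and 12.2 CPM (-2.96), Mki67 at 159 and 23.9 CPM (-2.74), Top2a at 214 and 55.2 CPM (-1.95) and Cenpa at 106 and 52.4 CPM (-1.02). The S members split: Rrm2 was at 67.1 and 10.2 CPM (-2.72) and Tyms at 59.2 and 11.4 CPM (-2.38), while Slbp was at 148 and 134 CPM (-0.15), Mcm6 at 109 and 87.5 CPM (-0.32) and Cdt1 at 26.0 and 28.9 CPM (0.15). The G2/M share rested on 24 cells with a median of 19825.5 UMIs in the WT-labelled library and 15 with a median of 10779 in the other, before thinning. The part of that depth in the result was not tested. In these G2/M cells, chosen by the same members, the G2/M sum was 5920 and 4231 CPM. Their median number of G2/M members before thinning was 21 and 7.

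Monocytes and macrophages had 23 of 25 G2/M members called lower (median -1.15) and 14 of 23 measured S members (median -0.62), where 5.63% of 10237 genes were called lower and 6.65% higher. Ccnb1 was at 12.1 and 3.37 CPM (-1.85), Ccnb2 at 20.8 and 6.04 CPM (-1.78), Ube2c at 45.5 and 14.3 CPM (-1.67) and Mki67 at 72.4 and 32.6 CPM (-1.15). Mcm2 had the lowest S ratio, at 19.4 and 7.92 CPM (-1.29), and Slbp was at 53.8 and 53.9 CPM. In the 67 and 37 G2/M cells of this class the G2/M sum was 3594 and 2985 CPM. The mixture of states differed here as well. Cells with Mmp12 and Adamdec1 were 37.6% and 16.1% of the class and were the most often cycling, at 26.3% and 20.1%, while cells with Arg1 were 12.5% and 24.0% and were cycling at 9.20% and 4.74%, and those scoring as monocytes at 5.71% and 3.68%, which is within the range of the classes with the lowest shares. Macrophages with no state were 34.9% and 36.5% of the class and were cycling at 20.9% and 8.87%. Their ratio of cycling shares, KO-labelled over WT-labelled, was 0.425 (0.287 to 0.629). The ratio intervals of the other groups included equal shares. They were 0.539 to 1.08 with Mmp12, 0.221 to 1.20 with Arg1 and 0.240 to 1.73 in monocytes. With the macrophage states weighted alike, the cycling shares were 16.9% and 9.77%, a log2 ratio of -0.79 in place of -1.18. This alternative was chosen after seeing the data.

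Fewer members passed the call in type 1 dendritic cells and microglia than in tumour, NK or monocyte and macrophage cells. In B cells more of the measured members were higher than lower. Type 1 dendritic cells had 4 of 22 S and 6 of 23 G2/M members called lower, where 4.41% of 6931 genes were (4.98% higher), with medians of -0.38 and -0.17: the replication factor Gins2 was at 32.5 CPM in the WT-labelled library with a log2 ratio of -1.13, Cdc20 at 31.0 CPM with one of -1.12, and Top2a was at 172 and 161 CPM (-0.10). Microglia had no S member called and 4 of 16 G2/M members called lower, where 5.88% of 7129 genes were (5.22% higher): Cenpe had a log2 ratio of -1.23 and Mki67 was at 114 and 73.7 CPM (-0.63). B cells had 9 of 11 measured G2/M members and 4 of 8 S members called higher. Of 5061 genes 12.6% were higher and 10.3% lower, and the intervals of 4 G2/M members excluded 0. The rest of the 25 G2/M and 24 S members were not measured. Measured G2/M members had 3 to 25 UMIs in the WT-labelled library and 97 to 445 in the KO-labelled library. Members were thus measured mainly by UMIs of the KO-labelled library, and the part of this in the result was not tested. Unmeasured members went both ways, such as Fen1 (-0.64), Kif11 (-0.24), Aurkb (2.49) and Hmmr (2.63). Top2a was at 46.2 CPM from 14 UMIs in the WT-labelled library and at 145 CPM from 445 UMIs in the KO-labelled library (1.65, 0.89 to 2.53). The KO-labelled library had 13 G2/M cells among 294 thinned B cells, with a median of 30097 UMIs and a G2/M sum of 4410 CPM. Of these 13 cells 11 held Xist and no Y-linked UMI, and 1 held Y-linked and no Xist UMIs. The WT-labelled library had 1 G2/M cell of 47. In B cells not cycling the G2/M sum was 181 and 152 CPM, lower in the KO-labelled library with overlapping intervals. The 63 B cells in the WT-labelled library had a median of 3862 UMIs and the 310 in the KO-labelled library 7388.5, and the part of that depth in the result was not tested. In mature dendritic cells 2 of 3 measured G2/M members were called higher, where 10.1% of 5149 genes were and 4.89% were lower. Here too most G2/M UMIs came from the KO-labelled library, 1092 in 269 cells against 118 in 102 cells, or 349 against 125 CPM. In mature dendritic cells not cycling the G2/M sum was 130 CPM in the KO-labelled and 120 CPM in the WT-labelled library. Plasmacytoid dendritic cells had 3 measured S members, none called, where 6.05% of 5156 genes were higher and 5.06% lower.

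Because the KO-labelled library holds cells with Xist and cells with Y-linked transcripts, the shares were also taken by kind, among cells with 1 of these and none of the other. Cells with Y-linked and no Xist UMIs were cycling at 46.4% and 32.6% in T cells, 29.0% and 13.0% in NK cells, 126 of 631 cells and 9 of 183 (4.92%) in monocytes and macrophages, and 39.9% and 29.6% in type 1 dendritic cells, in the WT-labelled and KO-labelled libraries. Each of these cycling shares was again lower in the KO-labelled library. The type 1 dendritic share there rested on 8 of 27 cells (13.8 to 50.2), and its interval overlaps that of the WT-labelled library (32.3 to 47.8). B cells of this kind were at 17.5% (7 of 40 cells) and 9.62% (5 of 52), also with overlapping intervals. In microglia these shares were 17.5% (11 of 63 cells) and 2.35% (2 of 85), whereas microglia with Xist and no Y-linked UMI in the KO-labelled library were at 20.9% (49 of 235). The median depth of these 3 groups of microglia was 8508, 7765 and 14684 UMIs before thinning. NK cells with Xist were at 17.2%, T cells at 33.6% and monocytes and macrophages at 9.32%. In cells with Y-linked and no Xist UMIs, the G2/M shares of T cells were 23.5% (19.8 to 27.6) and 18.2% (13.7 to 23.4). They were 20.2% and 18.5% in type 1 dendritic and 11.1% and 2.60% in NK cells, also with overlapping intervals. Monocytes and macrophages were at 9.83% and 0.546%, without overlap. Of B cells 1 of 40 and 1 of 52 were G2/M, against 11 of 198 with Xist and no Y-linked UMI.

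G2/M members were found together in single cells more than other pairs. The share of thinned tumour cells with a UMI of 1 member among cells with another was compared with its share in all 1523 cells. Over pairs the median of this ratio was 3.66 for 300 pairs of G2/M members, 2.09 for 276 pairs of S members and 1.86 for 600 pairs across the phases. In T cells the medians were 5.60, 2.11 and 1.96. Of the 114 tumour cells with Ccnb1, 41 (36.0%) had Plk1, the kinase that activates its complex, against 6.11% of all cells. Of the 36 with Cdc6, 17 (47.2%) had Dtl, part of the ligase that clears Cdt1, against 8.80%. Pairs across the phases reached as high: of the 72 with Aurkb, 13 (18.1%) had E2f8, against 2.95%. At the other end none of the 80 tumour cells with Bub1b had Ung, and 3 of 207 with Hmmr did (1.45%), against 2.76% of all cells. These pairs share cells and depth, and the values are descriptions.

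Other division genes, a list of 119 chosen with earlier results of these data known, were counted in the same way, where 7.01% of all measured genes were lower and 10.7% higher in tumour cells. Of 14 licensing and initiation genes 8 were called lower in the KO-labelled library, of 23 replication and nucleotide genes 11, and of 54 mitosis genes 29, with none called higher. Medians were -0.63, -0.53 and -0.59. Gmnn, the licensing inhibitor, was at 77.9 and 42.9 CPM (-0.86) and Spc24, a kinetochore protein, at 81.8 and 38.9 CPM (-1.07). Of 13 G1/S cyclins, their kinases and E2F factors 3 were called lower and 2 higher. Ccnd2, a D-type cyclin, was at 143 and 298 CPM (1.06), and Cdk6, a kinase that D-type cyclins activate, at 24.1 CPM in the WT-labelled library with a log2 ratio of 1.24 (1.09 to 1.39), while Ccnd1 was at 746 and 726 CPM (-0.04). Of 15 inhibitor and quiescence genes 1 was called lower and 1 higher, with a median of 0.08: Btg2, an antiproliferative gene, was at 45.3 and 76.2 CPM (0.75) and Cdkn1c, which encodes p57, at 4.27 and 2.32 CPM (-0.88). In T cells, where 2.38% of all genes were lower and 4.86% higher, the corresponding counts were 2 lower of 14, 4 of 23, 2 lower and 1 higher of 13, none of 13 measured, and 1 lower of 54.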

How the data were processed

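The authors deposited whole-number UMI counts for every gene and barcode in 2 libraries of dissociated mouse brain, made with Cell Ranger 7.1.0, and Seurat 5.0.2 and the build mm10 are also named, per the submitters' processing notes. What Seurat was used for is not stated. The tables list 36601 human genes beside 32285 mouse genes, and human UMIs made up 0.0146% and 0.0191% of those in kept cells. Whether a library pools animals is not stated.

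From these counts, with Python 3.11.15, scipy 1.17.1 and scanpy 1.11.5, barcodes under 500 genes (3990 and 1239) or over 10% mitochondrial UMIs (282 and 555) were left out. Cells were classed by the mean z score of marker genes, with at least 3 markers detected, a score of at least 0.5 and a margin of 0.3 over another lineage. This scoring, and the state cutoff of 0.3, were set after seeing the cells and after 1 earlier version was compared with the clusters. UMIs were summed per class and library and divided by the summed mouse UMIs (CPM). Cells were thinned to 3000 UMIs without replacement, and shallower cells left out. Shares have exact binomial intervals, sums exact Poisson intervals, CPM ratios exact conditional binomial intervals and ratios of shares log-normal intervals. A count of 0 was replaced by 3 in ratios. Both libraries were used in every comparison and no test was possible. Scrublet called 77 and 164 doublets, in the WT-labelled library as the expected number of highest scores since its automatic threshold marked 0.289%, and these were removed in an alternative. Members to describe were the 6 with the most UMIs and the 3 highest and 3 lowest ratios per list and class, and for related genes those with most UMIs and extreme ratios. The members and lists were chosen with earlier results of these data known. The ratio and thinning steps were tested on simulated data.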

Additional observations from a re-analysis of the deposited data

Results flagged for a closer look

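The 11 measured G2/M members of B cells had a median log2 ratio of 0.97, higher in the KO-labelled library. The measured members of tumour, T, NK and monocyte or macrophage cells had medians that were lower in that library. This difference between classes was not tested. Barcodes below the minimum of 500 genes, which no comparison uses, still held member transcripts: the G2/M members summed to 798 CPM in the 3990 such barcodes in the WT-labelled library and 453 CPM in the 1239 in the KO-labelled library, from 1291 and 480 UMIs.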

How the results depend on the processing

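No paired analysis was possible because each group has 1 library and the labels carry no replicate numbers. Of 186 alternatives for the shares, medians and counts of the main classes, 148 stayed near the reported value. For ratios of shares this meant within its counting interval, and for counts within 1.5 times of it. For list medians it meant a move smaller than the median half-width of the intervals of single members. For medians within G2/M cells the limit was the half-width of the interval of the summed members, or a fixed minimum where larger. These limits do not keep the sign of values near 0. The cycling share of tumour, T, NK, monocyte or macrophage and type 1 dendritic cells stayed lower in the KO-labelled library in 45 of 47 alternatives, and the list medians of tumour, T, NK and monocyte or macrophage cells lay below 0 in 60 of 60. The cause of these moves was not tested.

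Log2 ratios of the cycling share follow. With at least 2 members for a call they were -0.41 in tumour, -0.21 in T, -0.0904 in NK and -0.53 in monocyte or macrophage cells. With at least 5 members they were -0.92, -0.61, -2.67 and -1.82. Without thinning they were -0.0677 in tumour, -0.24 in monocyte or macrophage and -0.11 in type 1 dendritic cells, 0.0115 in T cells and 0.0203 in NK cells, so that both of the last changed sign. Thinned to 2000 UMIs, NK cells were at -1.17. In cells with Y-linked and no Xist UMIs they were -1.16 in NK, -2.02 in monocyte or macrophage cells and -2.89 in microglia, whose ratio over all cells was 0.003 and also lay below 0 with other thinning, stricter filters and classes from clusters. With states weighted alike they were -0.33 in tumour and -0.79 in monocyte or macrophage cells.

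With a call at 2-fold, 1 S and 4 G2/M members were lower in tumour cells, 0 S members in T cells and 2 in monocyte or macrophage cells. With tumour states weighted alike 1 S and 8 G2/M members were, with medians of -0.37 and -0.49. With macrophage states weighted alike 8 S members were lower, and with T cell subsets weighted alike 2 S members, both alternatives chosen after seeing the data. The tumour G2/M median was -1.08 as a mean over cells and -0.70 in classes from clusters. As a mean over cells 2 G2/M members were lower in T cells, and with at least 20 UMIs 25 were in NK cells. In cells with Y-linked and no Xist UMIs the G2/M median was -0.0069 in T, -4.58 in NK and -2.34 in monocyte or macrophage cells, and the NK S median -1.71. Within G2/M T cells called by at least 5 members the G2/M median was -0.0205.

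With 1 library per group, depth limits members under 100 UMIs, which were left uncalled. Of 1150 alternatives for 179 single member values 945 stayed within their counting interval and 205 moved.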

Other observations

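Outside the 49 members, other genes also differed between G2/M cells and cells not cycling of the same class and library. The cells were chosen by division genes, and the genes named here after their values were seen. In tumour cells 428 of 10181 other genes were at least 2-fold higher in G2/M cells in both libraries and 147 at least 2-fold lower, and in T cells 283 and 84 of 5815. In tumour cells Pbk, a mitotic kinase, was at 96.5 CPM in G2/M cells and 0.603 CPM in cells not cycling in the WT-labelled library, and at 115 and 0.717 CPM in the KO-labelled library. Aspm, a spindle pole protein, was at 118 and 1.51 CPM, and at 133 and 1.49 CPM. In T cells Pclaf, a partner of Pcna, was at 543 and 3.19 CPM, and at 537 and 2.27 CPM, and Stmn1, which destabilises microtubules, at 1071 and 18.7 CPM, and at 1113 and 24.3 CPM.

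Genes lower in G2/M tumour cells included Mxd4, a MAX partner, at 40.4 CPM against 125 CPM in cells not cycling in the WT-labelled library and 35.2 against 109 CPM in the KO-labelled library, the histone demethylase Kdm5b at 17.3 against 62.9 CPM and 14.8 against 51.4 CPM, and the phosphatase Dusp1 at 71.9 against 211 CPM and 55.4 against 184 CPM. Cp, a marker used for the Col2a1 state, was at 8.53 against 40.5 CPM and 36.2 against 109 CPM.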
